A study of Mus musculus with 30 samples.

Results

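Amino acid transporters of the plasma membrane were followed in mHypoA-2/12 cells through 8 genes, *Slc7a1*, *Slc7a5*, *Slc7a11*, *Slc3a2*, *Slc38a1*, *Slc38a2*, *Slc1a4* and *Slc1a5*. The members were the rows of the count tables whose Ensembl identifier has one of these symbols, 8 of the 56941 genes listed. These symbols were chosen with earlier results of these data known. All 8 passed the filter on low counts at both times. The mHypoA-2/12 line comes from adult mouse hypothalamus and was immortalized, so a single line stands for the tissue here. The cells were treated with vehicle (DMSO in culture medium) or with cannabidiol (CBD), a compound of *Cannabis sativa*, at 0.325, 0.75, 1.5 or 3 µM. Treatment lasted 6 or 24 h, and polyadenylated RNA was read at the 3′ ends of its transcripts. Every time held 1 vehicle group and 4 dose groups of 3 libraries each, 30 libraries in all, which are named A1 to A30 as in the labels. Nothing in the sources used here says that the libraries of a group came from separate cultures, so the p-values measure the spread between libraries, which may be technical.

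Cells take up most amino acids through carriers of a few families. *Slc7a1* encodes the main carrier of arginine and lysine. *Slc7a5* and *Slc7a11* encode the light chains of exchangers that bring in leucine and other large neutral amino acids (LAT1) and cystine (xCT), and *Slc3a2* encodes the heavy chain that carries both light chains to the membrane. *Slc38a1* and *Slc38a2* encode sodium-coupled carriers of glutamine, alanine and other small neutral amino acids, and *Slc1a4* and *Slc1a5* encode exchangers of alanine, serine, cysteine and, for *Slc1a5*, glutamine. Several of these genes are known targets of ATF4, the transcription factor that is translated when amino acids are scarce or proteins misfold. ATF4 binds with C/EBP partners at composite sites (C/EBP-ATF response elements), and the amino acids that enter feed the kinase complex mTORC1.

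On GRCm38, the members lie on 7 chromosomes. *Slc7a1* (ENSMUSG00000041313) spans chr5:148327410-148399904, *Slc7a5* (ENSMUSG00000040010) chr8:121881150-121907694 and *Slc7a11* (ENSMUSG00000027737) chr3:49892526-50443614, all on the minus strand. *Slc3a2* (ENSMUSG00000010095) lies at chr19:8706882-8723369 and *Slc1a4* (ENSMUSG00000020142) at chr11:20302180-20332713, both on the minus strand. *Slc38a1* (ENSMUSG00000023169, chr15:96571418-96642913) and *Slc38a2* (ENSMUSG00000022462, chr15:96687392-96699730) are neighbours on the minus strand. *Slc1a5* (ENSMUSG00000001918) is at chr7:16781340-16798274 on the plus strand. All are protein-coding genes.

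RefSeq promoter windows of 300 bases, 250 before and 50 from the transcription start (GRCm38.p6), were given for 5 members. The core of the C/EBP-ATF response element, TGATGNAA or TTNCATCA on the opposite strand, was searched in them, as several members are known ATF4 targets. The search found 2 sites in *Slc7a11*, at bases −66 to −59 and −47 to −40 from the start, and 1 site in *Slc1a4*, from base −4 across the start to base 4. The stretches with the sites run in the direction of transcription, with the matches in capitals; the first is chr3:50443614-50443739 and the second chr11:20332710-20332777, both on the minus strand.
*Slc7a11*: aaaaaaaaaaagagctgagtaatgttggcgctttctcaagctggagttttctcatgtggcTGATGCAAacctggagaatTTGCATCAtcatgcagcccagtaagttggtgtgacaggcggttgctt
*Slc1a4*: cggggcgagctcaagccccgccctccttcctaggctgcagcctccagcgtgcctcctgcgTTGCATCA
The windows of *Slc7a1* (both starts), *Slc38a2* and *Slc3a2* held no match to these letters. Sequence outside the windows, such as the rest of each gene, was not searched. *Slc7a5*, *Slc38a1* and *Slc1a5* had no window. Of all 32851 windows in the table, 3.97% held at least 1 site and 0.07% held 2 or more. A match is a description of the letters and does not show that a factor binds.

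Reads on genes ranged from 1839621 to 3574833 per library at 6 h and from 2192094 to 4420675 at 24 h, and counting error was largest for *Slc7a11*, with 15 to 54 reads at 6 h and 2 to 26 at 24 h. Levels are CPM, the reads of a gene scaled to the reads of its library, after TMM scaling of all 30 libraries. They are not divided by transcript length and are compared within a gene only. Fold changes come from fits within each time, and a gene was called at an FDR below 0.1 (edgeR, quasi-likelihood test, with the Benjamini-Hochberg correction made over every gene of the fit). In RNA from whole cultures, fewer cells that express a gene and less RNA per cell cannot be told apart. Of 10 neuronal markers, *Tubb3*, *Map2* and *Stmn2* had medians of 50.6, 24.9 and 14.8 CPM, and *Gap43* one of 5.81 CPM. *Syt1*, *Syn1*, *Rbfox3*, *Elavl3*, *Elavl4* and *Snap25* had 4 to 169 reads over all libraries. *Npy*, *Pomc* and *Agrp*, peptides of hypothalamic neurons, had 1, 3 and 15 reads. Of the receptors looked at, *Npy1r* had 146 reads, *Lepr* 34, *Glp1r* 1, and *Mc3r* and *Ghsr* 0. Of the microglial markers, *Tmem119* and *Cx3cr1* had medians of 255 and 13.3 CPM, and *Aif1* and *P2ry12* had 2 and 10 reads. Of 7 mesenchymal markers, *Col1a1* lay at 1751 to 2453 CPM and the lowest, *Lum*, had 87 reads. Library A3, a vehicle of 6 h, stood apart from A1 and A2, with 3574833 reads against 1839621 and 1919498 and with 17.9% of uniquely mapped reads outside genes against 21.4% and 20.8%. A1 and A2 had the fewest reads of the 30 libraries, and CBD library A13 had 17.7% of uniquely mapped reads outside genes. Which of the 3 vehicle libraries is the least typical was not tested. For the members, the comparisons that use the vehicle of 6 h with the 4 doses together or over time are also given without A3.

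At 6 h, the arginine and lysine carrier *Slc7a1* fell with CBD. It was at 161, 186 and 154 CPM in the vehicle libraries A1 to A3, and at 106 to 132 CPM (median 119) in the 12 CBD libraries. All 12 CBD libraries thus lay below all 3 vehicle libraries. The mean fell from 167 ± 16.7 CPM (SD, n = 3) to 118 ± 9.49 CPM (SD, n = 12), with a log2 fold change of −0.50 over the 4 doses together (standard error 0.11, edgeR FDR = 0.0308). It was the only member called in this comparison, in which 0.749% of the 12012 genes tested were called (90 genes, 61 of them lower). The change was called in 14 of the 15 fits that left out 1 library. Without A2, the vehicle library with the highest level, it was −0.42 with an edgeR FDR of 0.245, and without A3 it was −0.56 with an edgeR FDR of 0.0149.

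The level of *Slc7a1* showed little dependence on dose at 6 h. Its means were 121 ± 12.8 CPM at 0.325 µM, 121 ± 12.9 CPM at 0.75 µM, 115 ± 9.28 CPM at 1.5 µM and 115 ± 6.22 CPM at 3 µM (SD, n = 3 each). The dose groups overlapped one another. Each dose against vehicle gave a log2 fold change between −0.47 and −0.53. None of these single-dose tests passed the threshold in edgeR, with FDR values of 0.2 to 0.312. The authors, who used DESeq2 with an FDR below 0.1, list *Slc7a1* among the genes altered at 6 h. Its single-dose call thus differed between their fit and the edgeR fit here, and the reason was not tested. The test of any difference among the doses gave an edgeR FDR of 0.9998, and the trend was −0.02 per doubling of dose (95% interval −0.11 to 0.06).

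**Figure D1:**
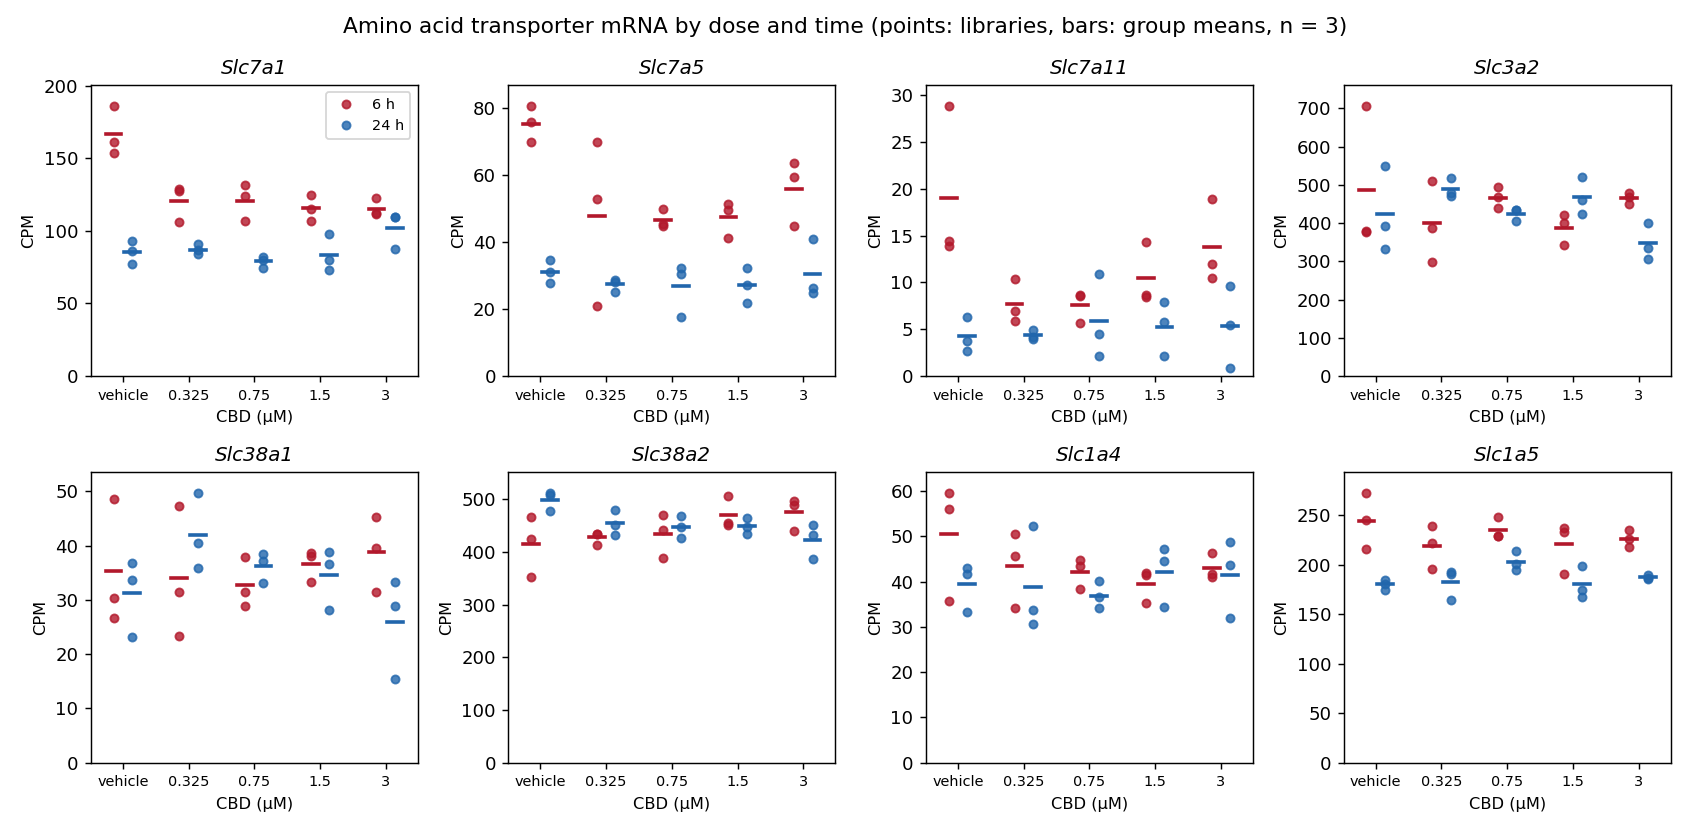
Level of each of the 8 transporter genes in CPM (vertical axes, from 0, a scale of its own for each gene) against CBD dose in µM (horizontal axes), with 6 h in red and 24 h in blue. Points are libraries and bars are means of 3 libraries; *Slc7a1* and *Slc7a5* at 6 h have all CBD libraries below all vehicle libraries.

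The light chains of the LAT1 and xCT exchangers had larger fold changes at 6 h that were not called. *Slc7a5*, the leucine carrier, was at 70.1, 80.6 and 75.8 CPM in vehicle and at 20.9 to 69.9 CPM (median 49.8) in the CBD libraries. Again all 12 CBD libraries were below all 3 vehicle libraries, although the highest, A15, was at 69.9 CPM and the lowest vehicle library at 70.1 CPM. The log2 fold change was −0.62 (standard error 0.19, edgeR FDR = 0.203), and −0.61 without A3 (edgeR FDR = 0.176). The spread was widest at 0.325 µM, where A13, A14 and A15 were at 52.9, 20.9 and 69.9 CPM. *Slc7a1* and *Slc7a5* are the 2 members whose groups did not overlap in this way, against 0.724% of all genes with every CBD library below every vehicle library. Without A14 the value of *Slc7a5* was −0.52 with an edgeR FDR of 0.0905, and without A15 −0.71 with an FDR of 0.0775.

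*Slc7a11*, the cystine carrier, was at 14.5, 28.8 and 13.9 CPM in vehicle at 6 h and at 5.63 to 18.9 CPM (median 8.67) with CBD. Of the 12 CBD libraries, 10 were below all vehicle libraries, and none was above them all. How many of all genes reach this was not counted. The log2 fold change was −0.97 (standard error 0.27, edgeR FDR = 0.13). Without A2 it was −0.56 (edgeR FDR = 0.636) and without A3 −1.17 (edgeR FDR = 0.0461), so that 1 vehicle library decided its size. The mean was highest at 3 µM among the doses. It was 7.75 ± 2.31 CPM at 0.325 µM, 7.62 ± 1.73 CPM at 0.75 µM, 10.5 ± 3.35 CPM at 1.5 µM and 13.8 ± 4.5 CPM at 3 µM (SD, n = 3 each). The log2 fold changes against vehicle were −1.28, −1.31, −0.84 and −0.45 in that order. The trend was 0.27 per doubling of dose (95% interval 0.04 to 0.50), and it did not pass the correction over all genes (edgeR FDR = 0.996). No gene passed that test at 6 h (0% called), in which 4.27% of genes had an unadjusted p below 0.05.

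The heavy chain and the carriers of small neutral amino acids did not pass the test at 6 h. *Slc3a2*, the heavy chain, was at 379.8, 378 and 705 CPM in vehicle and at 299 to 511 CPM (median 444) with CBD. The high vehicle value is that of A3. The log2 fold change of *Slc3a2* was −0.19 (95% interval −0.50 to 0.11) with A3 and 0.18 without it, so its direction at 6 h rests on that library. *Slc38a1* turned likewise, from −0.03 to 0.31 without A3, where it was at 48.6 CPM against 26.7 and 30.4 CPM in A1 and A2. Neither gene was called with or without A3.

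*Slc38a2* had the only positive value among the members at 6 h, 0.12 (95% interval −0.09 to 0.33), or 0.016 without A3. It was at 425, 467 and 352 CPM in vehicle and at 388 to 506 CPM (median 446) with CBD, and the groups overlapped. *Slc1a4* was at 59.5, 56.0 and 35.8 CPM in vehicle and at 34.1 to 50.5 CPM with CBD, with a log2 fold change of −0.24 (95% interval −0.57 to 0.08), or −0.46 without A3 (edgeR FDR = 0.187). *Slc1a5*, the glutamine exchanger, was at 216, 272 and 245 CPM against 191 to 248 CPM, with a value of −0.12 (95% interval −0.34 to 0.09) both with and without A3. For these carriers the intervals leave room for changes in either direction.

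As a set, 7 of the 8 members had a negative value at 6 h, against 53.5% of all genes, and their median log2 fold change was −0.22 against −0.02 for all genes tested. Without A3, 5 of the 8 were negative, against 49.2% of all genes, with a median of −0.29. An unadjusted p below 0.05 was found for 3 members, against 10.3% of all genes. In edgeR no member was called at any single dose, where 0.2%, 0.0749%, 0.0999% and 0.05% of genes were called in order of dose. At an unadjusted p below 0.05 there were 3 members at each of 0.325, 0.75 and 1.5 µM and 1 at 3 µM, against 8.8%, 7.79%, 7.91% and 7.26% of all genes. DESeq2 called 1 member at 1 or more doses, and its share of all genes called there was not counted.

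**Figure D2:**
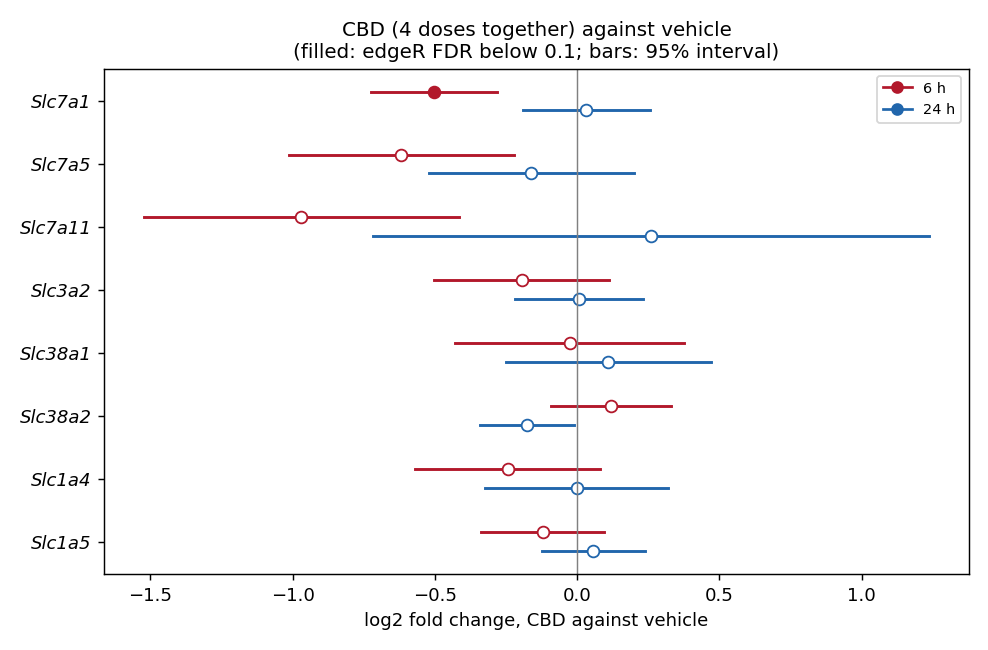
Log2 fold change of CBD (4 doses together) against vehicle on the horizontal axis for each transporter gene, at 6 h (red) and 24 h (blue), with bars for the 95% interval and filled points for an edgeR FDR below 0.1. The only filled point is *Slc7a1* at 6 h, at −0.50, and its value at 24 h is 0.03.

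At 24 h, no member was called with the 4 doses together, and 0.107% of the 12118 genes tested were. In edgeR, 1 member had an unadjusted p below 0.05, against 6.73% of all genes, and DESeq2 called 0 members. *Slc7a1* was at 77.1, 93.2 and 85.8 CPM in the vehicle libraries A28 to A30 and at 72.8 to 109.6 CPM (median 85.2) with CBD, and its log2 fold change was 0.03 (95% interval −0.19 to 0.25). *Slc7a5* was at 27.7 to 34.8 CPM in vehicle and at 17.7 to 40.8 CPM with CBD, with a value of −0.16 (95% interval −0.52 to 0.20). *Slc7a11* had only 2 to 26 reads per library at this time, and its value of 0.26 had a wide 95% interval, from −0.72 to 1.24. That interval overlapped the one of 6 h, from −1.52 to −0.42.

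The member with the smallest p at 24 h was *Slc38a2*, the glutamine and alanine carrier. It was at 508, 477 and 511 CPM in vehicle and at 387 to 479.6 CPM (median 447) with CBD. Of the 12 CBD libraries, 11 were below all 3 vehicle libraries, and how many of all genes reach this was not counted. The log2 fold change was −0.18 (standard error 0.08, edgeR FDR = 0.727), the single-dose values lay between −0.15 and −0.23, and the value stayed between −0.21 and −0.16 when each library was left out. It did not pass the correction. No member was called at a single dose at 24 h, where 0.066%, 0.0825%, 0.0413% and 0.00825% of genes were called in order of dose. Only *Slc38a2* at 3 µM had an unadjusted p below 0.05, as 9.16% of all genes had at that dose, and 8.33%, 7.63% and 7.34% at 0.325, 0.75 and 1.5 µM. DESeq2 called 0 members.

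At 24 h the highest dose could be set against the lower doses. *Slc3a2*, the heavy chain, was at 336, 399.5 and 306 CPM at 3 µM in A16 to A18, and at 406 to 519.8 CPM (median 460.1) in the 9 libraries of the 3 lower doses. All 3 libraries of 3 µM were below all 9 of the lower doses, but the share of all genes with such a separation was not counted. *Slc3a2* fell by 0.39 on the log2 scale (standard error 0.12, edgeR FDR = 0.0479). *Slc7a1* was at 109.6, 87.7 and 109.6 CPM at 3 µM and at 72.8 to 98.1 CPM (median 82.0) at the lower doses. The groups overlapped through A17, and *Slc7a1* was higher by 0.32 (standard error 0.11, edgeR FDR = 0.085). These 2 members were called where 10.5% of all genes were called. *Slc38a1*, a glutamine carrier, was at 15.4, 28.96 and 33.3 CPM against 28.1 to 49.6 CPM, with a value of −0.52 (standard error 0.20, edgeR FDR = 0.113). It was called by DESeq2 (adjusted p = 0.0876) and without a filter on low counts (edgeR FDR = 0.0696), and ran from −0.75 to −0.26 when each library was left out.

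The share of uniquely mapped reads outside genes moved with this contrast. It was 21.4% ± 0.487 at 3 µM and 21.4% ± 0.714 in vehicle, and had means of 19.4% to 19.7% at the lower doses (SD, n = 3 each). With that share as a covariate, *Slc3a2* was at −0.28 (edgeR FDR = 0.644) and *Slc7a1* at 0.44 (edgeR FDR = 0.44), and neither was called. Its part in the result was not tested further. The call of *Slc7a1* was also lost in 10 of the 15 fits without 1 library (edgeR FDR up to 0.435), and that of *Slc3a2* without A16 or without A18 (edgeR FDR = 0.205 and 0.224). Against vehicle, 3 µM gave −0.28 for *Slc3a2* (edgeR FDR = 0.545) and 0.27 for *Slc7a1* (edgeR FDR = 0.555); neither gene was called at that dose.

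Other tests over dose called no member. The trend at 24 h was −0.20 per doubling of dose for *Slc38a1* (edgeR FDR = 0.124) and −0.12 for *Slc3a2* (edgeR FDR = 0.137), the 2 members with an unadjusted p below 0.05, against 16.5% of all genes, in a test that called 3.13%. DESeq2 called 1 member for this trend, and its share of all genes called was not counted. For any difference among the doses at 24 h, 3 members had an unadjusted p below 0.05, against 14.5% of all genes, where 1.93% were called. *Slc3a2* had the smallest (edgeR FDR = 0.19). At 6 h the tests of any difference and of 3 µM against the lower doses called no gene in edgeR (0%). They gave 0 members and 1 member at an unadjusted p below 0.05, against 3.76% and 5.19% of all genes. DESeq2 called 0 members in the tests over dose at 6 h and for any difference at 24 h.

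The test of the difference itself, the change with CBD at 24 h minus that at 6 h, called no member and 0.235% of the 12790 genes tested. An unadjusted p below 0.05 was found for 3 members, against 6.52% of all genes. DESeq2 called 1, *Slc7a1*, where it called 0.383% of all genes. *Slc7a1* had the smallest p, with a difference of 0.54 (95% interval 0.23 to 0.84, edgeR FDR = 0.219). *Slc7a11* had a difference of 1.23 (95% interval 0.11 to 2.36, edgeR FDR = 0.735), and *Slc38a2* one of −0.29 (95% interval −0.55 to −0.04, edgeR FDR = 0.677). Without A3 these differences were 0.59, 1.44 and −0.19, no member was called, and *Slc3a2* and *Slc38a1* turned from positive values to −0.17 and −0.20.

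Over time in vehicle, without any CBD, 5 of the 8 members were called between 6 and 24 h, where 26.7% of all genes were. *Slc7a1* fell by 0.97 on the log2 scale (standard error 0.13, edgeR FDR = 4.14e-06), from 167 ± 16.7 to 85.4 ± 8.04 CPM (SD, n = 3 each). *Slc7a5* fell by 1.28 (standard error 0.25, edgeR FDR = 0.000334), from 75.5 ± 5.26 to 31.2 ± 3.55 CPM. In both genes the vehicle libraries of the 2 times did not overlap, but the share of all genes with such a separation was not counted. *Slc7a11* fell by 2.15 (standard error 0.49, edgeR FDR = 0.00193), from 19.1 ± 8.46 to 4.24 ± 1.86 CPM, and *Slc1a5* fell by 0.44 (standard error 0.12, edgeR FDR = 0.00684), from 244 ± 28.2 to 180.04 ± 5.01 CPM. Without A3 these 4 genes were at −1.01, −1.26, −2.34 and −0.42, and all were called, where 20.2% of all genes were.

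*Slc38a2* was the only member that rose in vehicle, by 0.27 (standard error 0.11, edgeR FDR = 0.0832), from 415 ± 57.9 to 499 ± 18.8 CPM, and without A3 the value was 0.18 (edgeR FDR = 0.339). *Slc3a2* (−0.21), *Slc38a1* (−0.20) and *Slc1a4* (−0.33) were not called. Without A3 *Slc1a4* was called at −0.53 (edgeR FDR = 0.0853), and *Slc3a2* and *Slc38a1* were at 0.18 and 0.15. Whether the courses of the members differ from one another was not tested. The 95% interval of the heavy chain *Slc3a2* ran from −0.57 to 0.16, and those of its light chains from −1.78 to −0.78 for *Slc7a5* and from −3.15 to −1.15 for *Slc7a11*. Time and harvest cannot be told apart, since each time is 1 harvest as far as the sources used here say.

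**Figure D3:**
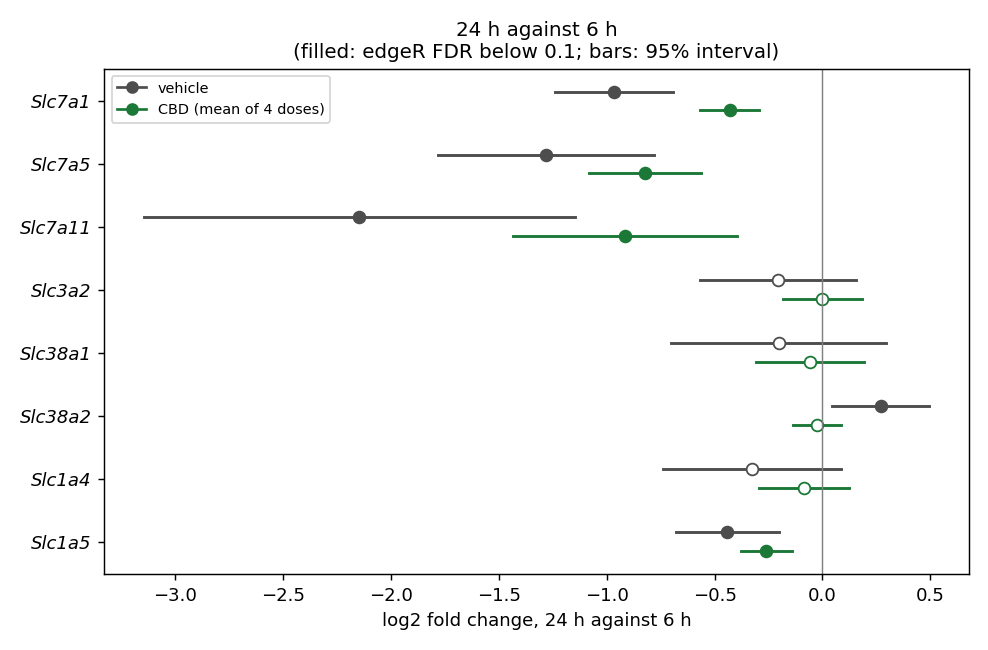
Log2 fold change of 24 h against 6 h on the horizontal axis for each transporter gene, in vehicle (grey, 3 libraries against 3) and with CBD (green, mean of the 4 doses, 12 libraries against 12), with bars for the 95% interval and filled points for an edgeR FDR below 0.1. *Slc7a1*, *Slc7a5*, *Slc7a11* and *Slc1a5* are filled in both, and *Slc38a2* in vehicle only.

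With CBD, *Slc7a1*, *Slc7a5*, *Slc7a11* and *Slc1a5* fell over time as well, in a comparison that called 53.6% of all genes. *Slc7a1* fell by 0.43 (standard error 0.07), *Slc7a5* by 0.82 (standard error 0.13), *Slc7a11* by 0.91 (standard error 0.26) and *Slc1a5* by 0.26 (standard error 0.06), with edgeR FDR values of 2.31e-06, 1.93e-06, 0.00343 and 0.000408. *Slc38a2* was at −0.03 (95% interval −0.14 to 0.09). Over all groups, 13 of the 15 libraries of 24 h had less *Slc7a1* than any library of 6 h, 10 had less *Slc7a11* and 10 less *Slc1a5*. Only 1 had less *Slc7a5*, since A14 of 6 h was at 20.9 CPM. For no member did every library of 24 h lie below every library of 6 h, as 0.68% of all genes did.

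The order of the 10 groups by mean level was as follows. *Slc7a1* was highest in the vehicle of 6 h, apart from all others, then in the 4 dose groups of 6 h, which overlapped, and then in the 5 groups of 24 h, whose neighbours in the order overlapped. *Slc7a5* had this order too, with the vehicle of 6 h apart from the next group, 3 µM at 6 h, and the last group of 6 h apart from the first of 24 h. Its libraries of 0.325 µM at 6 h, from 20.9 to 69.9 CPM, nevertheless overlapped the groups of 24 h. For *Slc7a11* the 5 groups of 6 h came before the 5 of 24 h, with all neighbours overlapping. *Slc1a5* also had the 5 groups of 6 h first, and its neighbours overlapped except for 0.75 µM at 24 h over 3 µM at 24 h. The groups of *Slc3a2*, *Slc38a1*, *Slc38a2* and *Slc1a4* were mixed over the times, from 489 ± 25.4 CPM at 0.325 µM for 24 h to 347 ± 47.8 CPM at 3 µM for 24 h in *Slc3a2*.

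How the members varied together is described by correlations of log2 CPM over the 30 libraries, which share times, doses and depth. *Slc7a1* had r = 0.74 with *Slc7a5*, 0.67 with *Slc7a11* and 0.76 with *Slc1a5*. Within groups, after the group means were taken off, these were −0.09, 0.23 and 0.35. The heavy chain *Slc3a2* had r = 0.20 with *Slc7a5* and 0.16 with *Slc7a11*, its partners at the membrane, and 0.26 and 0.08 within groups. Its highest r among the members was 0.54 with *Slc38a1*, or 0.45 within groups. Among 6635 other genes, those most like *Slc7a1* were *Nars*, a tRNA synthetase for asparagine (r = 0.92), and *Etf1*, a release factor of translation (r = 0.91). *Slc7a5* was most like *Tomm40* (0.88) and *Pfn1* (0.88), *Slc7a11* like *U2af2* (0.79) and *Drg2* (0.79), and *Slc1a5* like *Taldo1* (0.87) and *Tiam1* (0.86). *Slc3a2* was most like *Bcar1* (0.85) and *Zwint* (0.84), *Slc38a1* like *Atxn7l3b* (0.78) and *Zfp275* (0.78), and *Slc1a4* like *Smg9* (0.77) and *Dhx29* (0.74).

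Of 23 genes of the ATF4 pathway, all of which were tested, 3 fell with CBD at 6 h, where 0.508% of all genes were called lower. All 23 had a negative value, against 53.5% of all genes, with a median of −0.30. Among them, 11 had an unadjusted p below 0.05, against 10.3% of all genes. *Ppp1r15a* encodes GADD34, which helps to remove the phosphate from the initiation factor eIF2. It went from 34.0 ± 8.62 to 11.6 ± 2.30 CPM, with a log2 fold change of −1.57 (standard error 0.20, edgeR FDR = 0.000382). *Nupr1*, a stress-induced nuclear protein, went from 33.3 ± 2.76 to 17.01 ± 5.36 CPM (−0.99, standard error 0.22, edgeR FDR = 0.0437). *Atf4* itself went from 652 ± 120.1 to 465 ± 61.4 CPM (−0.49, standard error 0.12, edgeR FDR = 0.0647). In each of these genes n was 3 for vehicle and 12 for CBD, with SD as the error. All 3 were also called without A3, at −1.33, −1.05 and −0.63, when 21 of the 23 values were negative, against 49.2% of all genes. In that fit 7 genes of the list were called, with *Mthfd2*, *Sesn2*, *Trib3* and *Atf5* besides, and calls over all genes rose from 90 of 12012 to 304 of 12324, or 2.47%.

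**Figure D4:**
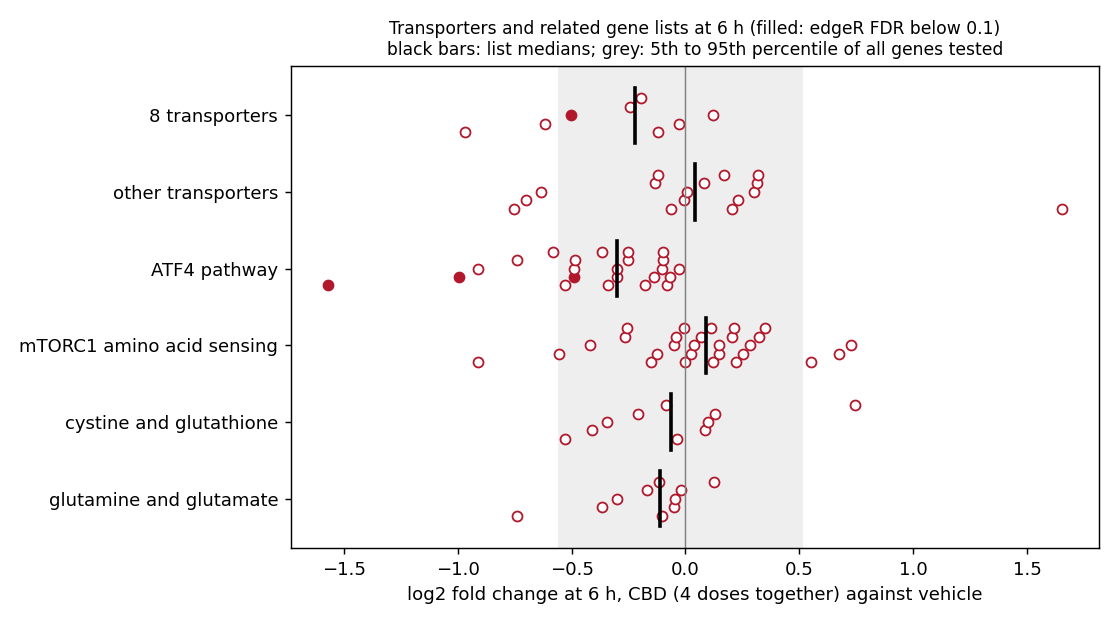
Log2 fold change of CBD (4 doses together) against vehicle at 6 h on the horizontal axis for the 8 transporters and 5 lists of related genes, with filled points for an edgeR FDR below 0.1, black bars for list medians and a grey band from the 5th to the 95th percentile of all genes tested. The 3 filled points of the ATF4 pathway lie at −1.57, −0.99 and −0.49, and all 23 points of that list are below 0.

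The ATF4 pathway had no gene called at 24 h, and DESeq2 called 0. An unadjusted p below 0.05 was found for 1 of 23, against 6.73% of all genes. Negative values were found for 14 of 23, against 51.4% of all genes. In vehicle over time, 13 genes of the pathway fell and none rose, where 14.2% of all genes were called lower. Among them, *Asns*, which makes asparagine, fell by 1.15 (edgeR FDR = 8.73e-07) and *Atf4* fell by 0.60 (edgeR FDR = 0.00401). Without A3 they were at −1.22 and −0.74, and 13 genes of the list were called lower, as were 1345 of all 13100 genes tested. *Slc7a1*, *Slc7a5*, *Slc7a11* and most of the list thus had lower levels at 24 h than at 6 h in vehicle. For *Slc7a1*, *Slc7a5* and *Slc7a11* the vehicle of 6 h was the highest of the 10 groups, and both the comparison with CBD at 6 h and the comparison of vehicle over time are made against it.

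Of 26 other amino acid transporters, 25 were in the annotation and 16 passed the filter at 6 h. None was called in edgeR or in DESeq2, 3 had an unadjusted p below 0.05, against 10.3% of all genes, and the median was 0.04. The smallest p belonged to *Slc1a2*, a glutamate carrier, with −0.75 (edgeR FDR = 0.204, or −1.09 with an FDR of 0.00788 without A3), and to *Ctns*, the cystine exporter of lysosomes, with −0.70 (edgeR FDR = 0.264). At 24 h, 15 were tested and none was called by either tool or had an unadjusted p below 0.05. *Slc38a4* had the smallest p, with −0.76 (edgeR FDR = 0.838), and then *Slc38a6*, with 0.31 (edgeR FDR = 0.838). In vehicle over time, 3 of 16 were called, where 26.7% of all genes were. *Slc7a2*, a further carrier of arginine and lysine, rose by 0.98 (edgeR FDR = 0.0024), the glutamate carrier *Slc1a3* rose by 1.72 (edgeR FDR = 0.0569) and *Slc1a2* fell by 1.21 (edgeR FDR = 0.0082).

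Of 28 genes tested at 6 h around amino acid sensing by mTORC1, none was called in edgeR. DESeq2 called 1, *Sesn2*, where it called 1.1% of all genes. An unadjusted p below 0.05 was found for 6, against 10.3% of all genes. *Sesn2*, a leucine sensor that is also an ATF4 target, was at −0.91 (edgeR FDR = 0.102), and it was called without A3. *Castor2* was at 0.73 (edgeR FDR = 0.231). With a covariate for reads outside genes, 4 genes of the list were called, *Castor2* and *Lamtor4* higher and *Sesn2* and *Rragc* lower, where 2.74% of all genes were called. At 24 h none of 29 was called by edgeR or DESeq2 and 3 had an unadjusted p below 0.05, against 6.73% of all genes. The smallest p were those of *Rraga*, a GTPase that recruits mTORC1 to lysosomes, at 0.46 (edgeR FDR = 0.465) and *Sesn1* at −0.74 (edgeR FDR = 0.715).

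Genes of cystine and glutathione were not called with CBD at either time by edgeR or DESeq2. An unadjusted p below 0.05 was found for 4 of 10 at 6 h and 1 of 10 at 24 h, against 10.3% and 6.73% of all genes. *Chac1*, which degrades glutathione, was at −0.53 at 6 h (edgeR FDR = 0.232) and *Srxn1* at −0.34 (edgeR FDR = 0.292). Without A3 the only gene of this list called was *Gclm*, a subunit of the enzyme that starts glutathione synthesis, at −0.62 (edgeR FDR = 0.0284). *Gpx4*, the peroxidase that uses glutathione against lipid peroxides, was at 0.74 at 6 h (edgeR FDR = 0.439) and at −0.79 at 24 h (edgeR FDR = 0.345), and *Cth* was at 0.66 at 24 h (edgeR FDR = 0.838). For glutamine and glutamate, none of 10 genes was called at either time by edgeR or DESeq2. At 6 h, 2 had an unadjusted p below 0.05, and at 24 h none had, against 10.3% and 6.73% of all genes. *Asns* was at −0.30 (edgeR FDR = 0.299) and *Aldh18a1* at −0.74 (edgeR FDR = 0.424) at 6 h.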

How the data were processed

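RNA of 30 libraries of mHypoA-2/12 cells, 3 in each of 10 groups, had been made into 3′ mRNA-Seq (QuantSeq FWD) libraries. Per the labels and methods, the authors trimmed the reads, mapped them with STAR 2.7.5c to GRCm39 and counted them with HTSeq 1.99.2 per Ensembl gene. The deposited values are raw counts per gene without normalization. The 5 summary lines per table were used only for the share of reads outside genes. Groups came from the labels.

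Tests used edgeR 4.0.16 in R 4.3.3 (filterByExpr, TMM, quasi-likelihood F-test, Benjamini-Hochberg, threshold 0.1), on the 15 libraries of each time or on all 30. The alternatives were DESeq2 1.42.0, RLE normalization, all genes without a filter, a minimum of 10 counts per library, each library left out in turn, only the 2 groups compared, and a covariate for the share of reads outside genes. DESeq2, the covariate and the fit without A3 for the lists of related genes were added after the data were seen. Log2 CPM for correlations used a prior count of 2, and genes of at least 20 CPM were searched for likeness. The steps were tested on simulated counts in which no library stood apart and the share of reads outside genes had no part.

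The genes named were the 8 members, the list genes called with CBD at either time or, where none was, the 2 with the smallest p at each time, and the 2 genes most like each member, which for *Slc38a2* are not reported here. *Asns* and *Atf4* over time, *Slc7a2*, *Slc1a3* and *Slc1a2* over time, *Sesn2* under DESeq2 and the genes named only without A3 or with the covariate were chosen after their values were seen. The members and lists were chosen with earlier results of these data known. Symbols and positions are those of GENCODE M21 on GRCm38, whereas the counts were made on GRCm39. Promoter sequences are those of RefSeq on GRCm38.p6. Intervals are at 95% and depth limits cover counting error only. Counts of reads unique to 1 gene were used, so reads shared with near-identical copies are not included.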

Additional observations from a re-analysis of the deposited data

Results flagged for a closer look

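*Ppp1r15a* of the ATF4 pathway stood out because its change with CBD differed between the times by the test of that difference. The log2 fold change was −1.57 at 6 h and −0.02 at 24 h, and the difference was 1.56 (standard error 0.35, edgeR FDR = 0.0656). In CPM, the vehicle went from 34.0 ± 8.62 at 6 h to 12.7 ± 4.45 at 24 h (SD, n = 3 each), whereas the CBD libraries were at 11.6 ± 2.30 and 12.98 ± 4.25 (SD, n = 12 each). In vehicle it fell by 1.42 over time (edgeR FDR = 0.00126), and with CBD its value over time was 0.14 (edgeR FDR = 0.524). Without A3 the difference was 1.31 (standard error 0.38, edgeR FDR = 0.317) and was not called, while the value at 6 h was −1.33 and calls of the difference over all genes went from 30 to 16.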

How the results depend on the processing

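No paired analysis was possible because the replicate numbers follow accession order and pair nothing. RLE normalization and the minimum of 10 counts left the number of members called within 1.5 times its value in every comparison, though that minimum left out *Slc7a11* at 24 h and over all libraries.

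For the 4 doses together at 6 h, 1 member was called, against 2 by DESeq2, 3 without a filter on low counts and 3 with a covariate for reads outside genes (0 to 2 when each library was left out). With *Slc7a1*, these were *Slc7a11* in each of them and also *Slc7a5* in both of the latter. Calls over all genes rose as well, from 0.749% to 1.1% by DESeq2 and 2.74% with the covariate. For single doses at 6 h, 0 became 1 by DESeq2, 1 without the filter and 2 with the covariate (0 to 2 without 1 library). For the trend at 24 h, 0 became 1 by DESeq2 and 2 without the filter (0 to 2). For any difference among doses at 24 h, 0 became 1 without the filter (0 to 1). For 3 µM against the lower doses at 24 h, 2 became 3 by DESeq2 and 0 with the covariate (0 to 3); without the filter *Slc38a1* gained a call (edgeR FDR = 0.0696) and *Slc7a1* lost its own (edgeR FDR = 0.195). For the difference between the times, 0 became 1 by DESeq2 (0 without 1 library), while calls over all genes went from 0.235% to 0.383%. In vehicle over time 4 to 5 members were called without 1 library. The shares of all genes called without the filter and, for single doses and tests over dose, under the other settings were not counted. The causes were not tested.

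Direction turned only for values that were not called. In the 4 doses together at 24 h, *Slc1a4* was at 0.000897 by DESeq2 and 0.00242 without the filter, and with the covariate *Slc7a1* was at −0.0591, *Slc3a2* at −0.0648 and *Slc1a5* at −0.0898. *Slc3a2* with CBD over time was at 0.00336 by DESeq2, 0.00325 with RLE, 0.012 without the filter, 0.00631 with the minimum of 10 counts and 0.0588 with the covariate. For 3 µM against the lower doses, *Slc1a5* was at −0.00573 without the filter at 24 h and at −0.00126 with the covariate at 6 h, and *Slc7a11* was at −0.845 with the covariate at 24 h. With the covariate the difference between the times was −0.0197 for *Slc3a2* and −0.00429 for *Slc38a1*, and *Slc3a2* in vehicle over time was at 0.0786.

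When each library was left out in turn, signs turned within these ranges. With the 4 doses together they were −0.34 to 0.18 for *Slc3a2* and −0.18 to 0.31 for *Slc38a1* at 6 h, and at 24 h −0.041 to 0.10 for *Slc7a1*, −0.14 to 0.24 for *Slc3a2*, −0.056 to 0.25 for *Slc38a1* and −0.10 to 0.070 for *Slc1a4*. For 3 µM against the lower doses they were −0.0058 to 0.091 for *Slc1a4* and −0.015 to 0.043 for *Slc1a5* at 6 h, and −0.073 to 0.33 for *Slc7a5*, −0.68 to 0.59 for *Slc7a11*, −0.037 to 0.25 for *Slc1a4* and −0.014 to 0.024 for *Slc1a5* at 24 h. The difference between the times ran from −0.17 to 0.44 for *Slc3a2* and from −0.20 to 0.30 for *Slc38a1*. Over time in vehicle, *Slc3a2* ran from −0.42 to 0.18 and *Slc38a1* from −0.35 to 0.15. Over time with CBD, *Slc3a2* ran from −0.036 to 0.062, *Slc38a1* from −0.11 to 0.026 and *Slc38a2* from −0.031 to 0.0080.

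The 3 genes of the ATF4 pathway called at 6 h became 5 by DESeq2, 7 without A3 and 6 with the covariate, while calls over all genes went from 90 to 132, 304 and 329. *Slc38a2* in vehicle over time also lost its call without A28 or A30, without the filter and with the covariate (edgeR FDR = 0.159, 0.16, 0.155 and 0.149). The depth limits *Slc7a11* most, and 3 vehicle libraries a time limit every comparison of CBD with vehicle.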
